A study of Mus musculus with 12 samples.

Results

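The 10 genes described here had lower array signal in Dppa2/4 knockout embryonic stem cells that had been given Dppa2 and Dppa4 back than in the knockout cells themselves. They are Ddx25, Gtsf1l, Zglp1, Accsl, Srgn, Slco4c1, Prmt8, Map7d3, Zfp606 and Zfp874b, out of 22180 genes measured, and they were chosen on the values of the add-back and knockout arrays. Each was read in 1 probe set, and 0 of the 10 also had a probe set that the annotation assigns to several genes. The 12 arrays fell into 4 groups of 3 mouse embryonic stem cell samples, all carrying a tdTomato reporter driven by MERVL, an endogenous retrovirus active in 2-cell embryos. The groups were Dppa2/4 knockout cells transfected with plasmids for SUMO-deficient Dppa2 and Dppa4 fused to GFP (KO+Mut), knockout cells transfected with the wild-type GFP fusions (KO+WT), knockout cells (KO) and the parental reporter cells. All cells were grown with serum replacement and LIF on gelatin. Cells positive for GFP were sorted from the transfected groups. Neither step is described for KO or parental cells, so an effect of the proteins and an effect of transfection and sorting cannot be told apart in any comparison of an add-back with KO or parental cells. Arrays of a group are labelled biological replicates with no word on what separates them, so p-values measure the spread between these arrays, and how many knockout clones were used was not found in the labels. In bulk RNA, fewer cells that express a gene and less RNA in each cell cannot be told apart.

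The proteins Dppa2 and Dppa4 bind DNA as a pair and are found in pluripotent cells and the germ line. They are known for switching on transcripts of 2-cell embryos in stem cells and for keeping CpG-rich promoters of developmental genes open to activation. SUMO is a small protein attached to other proteins after translation, often to proteins of silenced chromatin. The 10 genes have no common pathway: 3 are known from germ cells, 2 encode zinc finger proteins that belong to a family of repressors, and the others encode a secretory granule protein, a transporter, a methyltransferase, a microtubule-binding protein and an enzyme-like protein.

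Facts of the whole series were these. Array medians lay between 3.73 and 3.88 (log2 signal) and lower quartiles between 2.36 and 2.47. The medians averaged 3.858 in KO+Mut and 3.856 in KO+WT, above 3.778 in KO and 3.797 in parental arrays. Dppa2 averaged 11.20 ± 0.09 in KO+Mut, 11.08 ± 0.28 in KO+WT, 8.48 ± 0.31 in KO and 9.77 ± 0.41 in the parental line (SD, n = 3 each). Dppa4 averaged 10.54 ± 0.14 in KO+Mut, 10.39 ± 0.26 in KO+WT, 7.62 ± 0.30 in KO and 8.46 ± 0.19 in parental cells, so both transcripts were highest on the add-back arrays and lowest on the KO arrays. Where the probes lie relative to the deletions was not checked. All 12 markers of embryonic stem cells lay above the array median on every array. Of 8 blood cell markers 4 lay above the median on all arrays, as did 3 of 8 fibroblast, 6 of 8 trophectoderm and 12 of 12 endoderm markers. The mean of the endoderm list was 5.86 to 5.99 on KO+Mut, 5.95 to 6.08 on KO+WT, 5.84 to 6.11 on KO and 6.30 to 6.76 on parental arrays.

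Promoters of the genes on which the results turn are shown to let their CpG content be compared, since Dppa2/4 are known from CpG-rich promoters. Sequences are from RefSeq (GRCm38.p6), 250 bases before to 50 bases after the listed start, 300 bases in all, and the most upstream start was used where several are listed. All 10 genes were matched. CpG dinucleotides are in capitals. The promoter of Ddx25 is at chr9:35558421-35558720, that of Zglp1 at chr9:21067044-21067343, that of Gtsf1l at chr2:163089552-163089851, that of Accsl at chr2:93930433-93930732 and that of Srgn at chr10:62527396-62527695, all on the minus strand.
Ddx25: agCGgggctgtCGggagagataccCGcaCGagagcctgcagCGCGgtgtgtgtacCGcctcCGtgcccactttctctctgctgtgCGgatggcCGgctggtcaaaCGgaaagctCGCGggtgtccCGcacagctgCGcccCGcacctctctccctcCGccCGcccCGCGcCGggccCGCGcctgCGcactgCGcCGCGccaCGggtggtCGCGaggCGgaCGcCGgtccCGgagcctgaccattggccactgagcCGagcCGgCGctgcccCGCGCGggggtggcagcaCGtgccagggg
Zglp1: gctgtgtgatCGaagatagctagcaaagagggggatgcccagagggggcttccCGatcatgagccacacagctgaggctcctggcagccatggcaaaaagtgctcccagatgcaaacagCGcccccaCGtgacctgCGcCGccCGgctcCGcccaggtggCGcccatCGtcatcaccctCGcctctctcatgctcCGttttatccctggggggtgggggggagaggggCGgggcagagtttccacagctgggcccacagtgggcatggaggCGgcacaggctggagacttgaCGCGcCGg
Gtsf1l: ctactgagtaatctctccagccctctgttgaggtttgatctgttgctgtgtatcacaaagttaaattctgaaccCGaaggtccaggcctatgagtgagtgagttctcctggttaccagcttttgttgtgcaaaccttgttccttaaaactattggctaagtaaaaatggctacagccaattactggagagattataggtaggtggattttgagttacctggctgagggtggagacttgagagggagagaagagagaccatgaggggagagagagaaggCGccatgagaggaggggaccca
Accsl: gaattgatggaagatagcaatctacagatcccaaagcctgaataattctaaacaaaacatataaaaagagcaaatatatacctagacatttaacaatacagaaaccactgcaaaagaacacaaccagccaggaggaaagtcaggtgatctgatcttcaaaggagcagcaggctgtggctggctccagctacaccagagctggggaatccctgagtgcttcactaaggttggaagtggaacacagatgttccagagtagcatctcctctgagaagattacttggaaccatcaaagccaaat
Srgn: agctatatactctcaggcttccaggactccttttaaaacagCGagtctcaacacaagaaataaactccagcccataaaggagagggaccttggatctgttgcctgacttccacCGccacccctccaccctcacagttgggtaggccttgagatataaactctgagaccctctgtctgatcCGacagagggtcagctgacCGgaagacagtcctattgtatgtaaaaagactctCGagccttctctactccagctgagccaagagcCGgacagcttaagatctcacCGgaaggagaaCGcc

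The CpG counts of the promoters ranged widely. Accsl had 0 CpG and Gtsf1l 2, whereas Ddx25 had 41 and Prmt8 43, against a median of 7 and quartiles of 3 and 20 over 27025 promoters of 300 bases. Srgn had 8, Zfp874b 10, Map7d3 13, Zfp606 16, Zglp1 17 and Slco4c1 21, so that 8 of the 10 were above the median, 3 above the upper quartile and 2 below the lower quartile. The E-box CACGTG was found in the promoters of Ddx25 (37 bases after the start) and Zglp1 (125 bases before it: position -125), and in 7.24% of all promoters. The ETS-type motif CCGGAAG, searched like the others on both strands, was in those of Srgn, at positions -52 and 34, and Zfp606, and in 9.14% of all. The YY1-type motif AANATGGC was in those of Map7d3, Gtsf1l and Zfp606 (6.2% of all), the GC box GGGCGG in 6 of the 10 (35.9% of all) and the E2F-type motif GCGGGAA in 0 of the 10 (4.67% of all). Positions are those of the first matched base relative to the start, and matches of different motifs did not overlap in these promoters. The motifs were picked with the sequences in view, and a match describes the letters only.

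**Figure D1:**
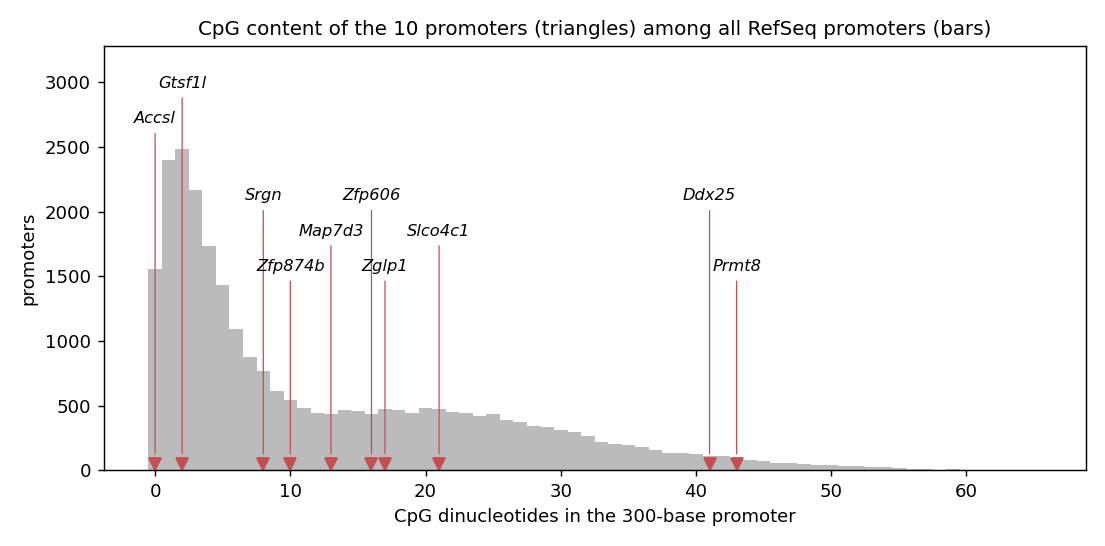
CpG dinucleotides in the 300-base promoters of the 10 genes (red triangles with names) and in all 27025 RefSeq promoters (grey bars, number of promoters at each CpG count). The 10 genes spread from 0 CpG in Accsl to 43 in Prmt8.

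The germ cell genes come first. Ddx25, which encodes a testis RNA helicase needed to complete spermatid development, had signals of 4.84, 5.17 and 4.97 on KO+Mut and 4.94, 5.11 and 5.01 on KO+WT replicates 1, 2 and 3. Its signals were 5.77, 5.86 and 5.92 on KO and 5.51, 5.52 and 5.04 on parental arrays. The KO arrays were thus the highest, above every array of the other groups, and parental replicate 3 lay within the range of the add-backs. Gtsf1l, a relative of the PIWI cofactor gene Gtsf1 known from gonads, was at 5.28, 5.03 and 5.12 in KO+Mut and at 4.98, 5.14 and 4.72 in KO+WT. In KO cells it was at 5.83, 5.78 and 5.64, and in parental cells at 5.77, 5.67 and 5.54. Gtsf1l had no overlap between the add-backs and the other groups, while KO and parental arrays overlapped. Zglp1, a GATA-type zinc finger gene that in mice starts the oocyte program of germ cells, was at 3.80, 4.30 and 4.29 in KO+Mut, below all other arrays. It was at 4.77, 4.63 and 4.48 in KO+WT, 4.66, 4.82 and 5.12 in KO and 4.66, 4.58 and 4.49 in parental cells, and these 3 groups overlapped.

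Accsl encodes a protein related by sequence to the plant enzyme that makes the precursor of ethylene. It was at 3.94, 4.30 and 4.18 in KO+Mut and at 4.75, 4.59 and 4.68 in KO+WT. Signals were 5.18, 5.41 and 5.12 in KO and 5.18, 5.17 and 5.04 in parental cells. Every KO+Mut array lay below every KO+WT array, and those lay below KO and parental arrays, which overlapped. Srgn encodes serglycin, the proteoglycan of secretory granules in blood cells, also made by parietal endoderm. It was at 5.90, 6.07 and 5.98 in KO+Mut and at 6.12, 6.09 and 5.98 in KO+WT, against 6.66, 6.63 and 6.84 in KO and 7.05, 7.28 and 7.57 in parental cells. Srgn had its highest mean in parental cells, while 8 of the other 9 genes had theirs in KO cells and Slco4c1 was at 6.26 in each. Its KO arrays lay between parental and add-back arrays and overlapped neither.

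The next 3 genes act in transport, methylation and the cytoskeleton. Slco4c1, an organic anion transporter gene known from kidney, was at 5.15, 5.28 and 5.50 in KO+Mut, 5.46, 5.37 and 5.92 in KO+WT, 6.19, 5.92 and 6.67 in KO and 6.13, 6.07 and 6.57 in parental cells. Replicate 3 was the highest array in all 4 groups. Prmt8, which encodes a membrane-bound arginine methyltransferase known from brain, was at 4.58, 4.15 and 4.52 in KO+Mut and 4.63, 4.37 and 4.86 in KO+WT. It was at 5.43, 5.33 and 5.21 in KO and 5.19, 4.94 and 5.07 in parental cells, with the lowest array at replicate 2 in 3 of the 4 groups. The 2 add-backs overlapped for Prmt8, and both lay below KO and parental arrays. Map7d3, of a family of microtubule-binding proteins that recruit kinesin-1, was at 5.26, 5.29 and 5.44 in KO+Mut and 4.87, 5.08 and 5.35 in KO+WT. In KO cells it was at 6.03, 5.95 and 6.37, and in parental cells at 5.50, 5.50 and 5.98. Replicate 3 was again the highest in all 4 groups, and parental replicate 3 reached into the KO range.

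The last pair encodes KRAB zinc finger proteins, a class that typically recruits the co-repressor Trim28 to DNA. Zfp606 was at 5.74, 5.51 and 5.34 in KO+Mut, 5.56, 5.45 and 5.27 in KO+WT, 6.06, 6.09 and 6.08 in KO and 6.05, 5.83 and 5.68 in parental cells. The KO arrays stood above all others by a narrow margin over parental replicate 1. Zfp874b was at 1.50, 1.90 and 1.69 in KO+Mut, 1.96, 2.00 and 2.16 in KO+WT, 2.41, 2.66 and 2.58 in KO and 1.93, 2.12 and 1.79 in parental cells. It lay below the lower quartile on 10 of 12 arrays and above the median on 0, and no detection calls were used, so how much of its signal is background was not tested. The other 9 genes lay above the array median on all 12 arrays, except Zglp1, which did so on 11.

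**Figure D2:**
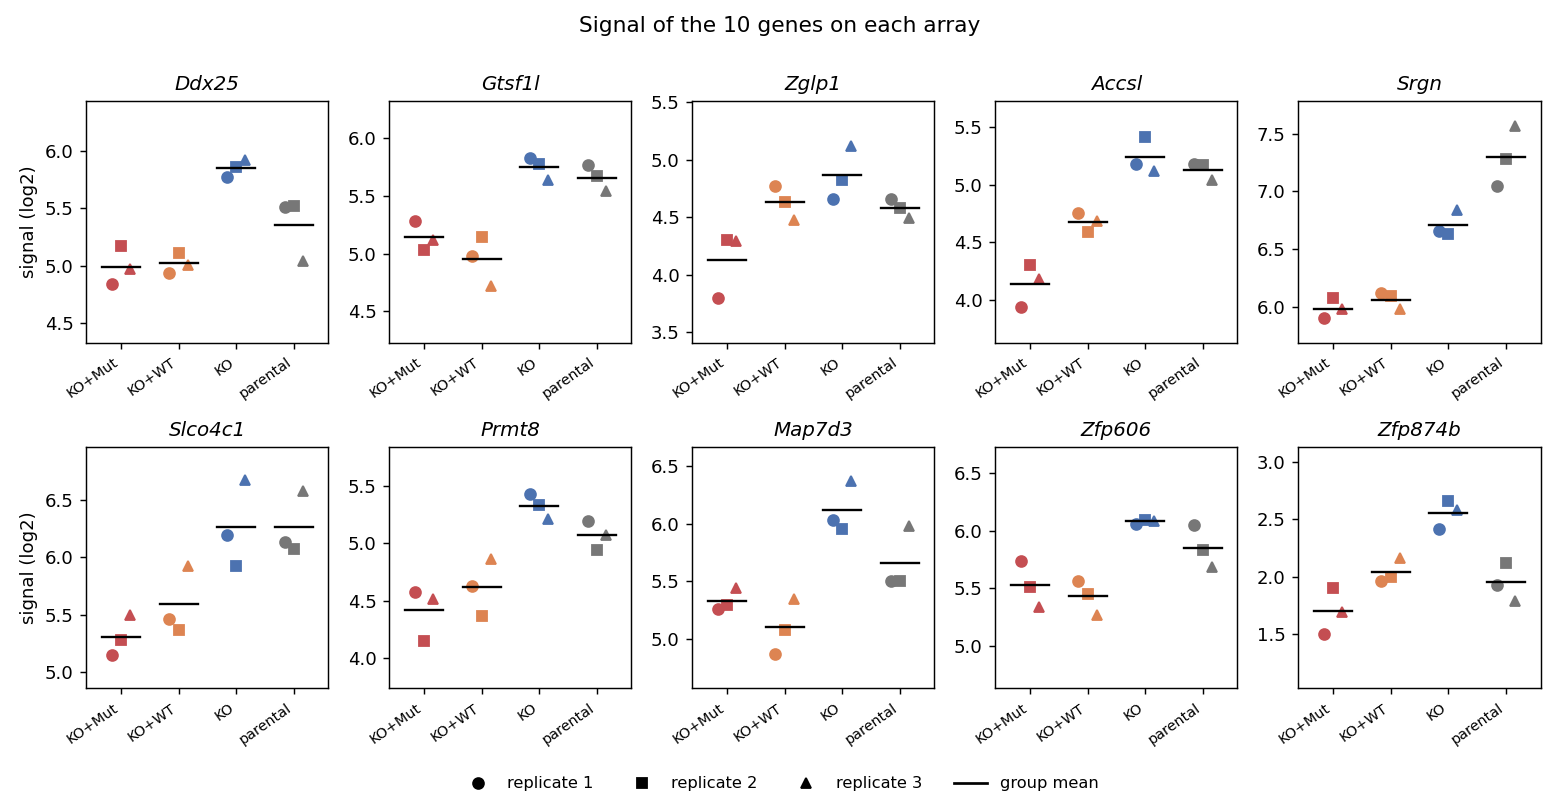
Log2 signal of each gene (y axis, the same height of scale in each panel) on the 12 arrays by group, with a symbol for each replicate number and a line at each group mean (n = 3). For Accsl the 3 KO+Mut arrays lie below the 3 KO+WT arrays, and for Srgn the parental arrays, at 7.05 to 7.57, lie highest.

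The comparison of each add-back with KO cells chose the genes, and its values are a description. All 10 genes were lower in KO+Mut than in KO cells, by 0.55 to 1.10 on the log2 scale: the differences ran from -1.10 for Accsl to -0.55 for Zfp606, with a median of -0.82, where the median over all genes was -0.007. In KO+WT the differences ran from -1.02 for Map7d3 to -0.24 for Zglp1, with a median of -0.66 (-0.001 over all genes). On the linear scale Accsl in KO+Mut was at 46.8% of its KO signal and Map7d3 in KO+WT at 49.5%. Groups did not overlap for 10 of the 10 genes in KO+Mut against KO and for 8 of 10 in KO+WT against KO, the exceptions being Zglp1 and Slco4c1. Over all genes such a separation downwards held for 8.77% and 7.43%. By limma (adjusted p under 0.05) 9 of the 10 were lower in KO+Mut, all but Zfp606, and 5 in KO+WT, namely Ddx25, Gtsf1l, Map7d3, Srgn and Zfp606, where the shares over all genes were 0.153% and 0.0992%. Nothing is read from these counts, which the choice of genes fixes. Leaving out 1 array left 3 to 5 genes in KO+Mut and 1 to 4 in KO+WT. In KO+Mut, Accsl, Ddx25 and Zfp874b were kept in 6 of 6 such fits, Prmt8 in 4, Slco4c1 in 1 and Map7d3, Gtsf1l, Srgn and Zglp1 in 0. In KO+WT, Gtsf1l was kept in 4 of 6, Map7d3 in 3, Ddx25 in 2 and Srgn and Zfp606 in 0. These fits reuse the arrays that chose the genes, so kept calls are a description too. With all arrays the genes make up 9 of 34 lower genes in KO+Mut and 5 of 22 in KO+WT, beside 248 and 162 higher genes (1.12% and 0.73% of all). Higher genes thus made up 87.9% of the calls in KO+Mut and 88% in KO+WT, and 72.9% and 75.2% once each array was centred on its median.

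**Figure D3:**
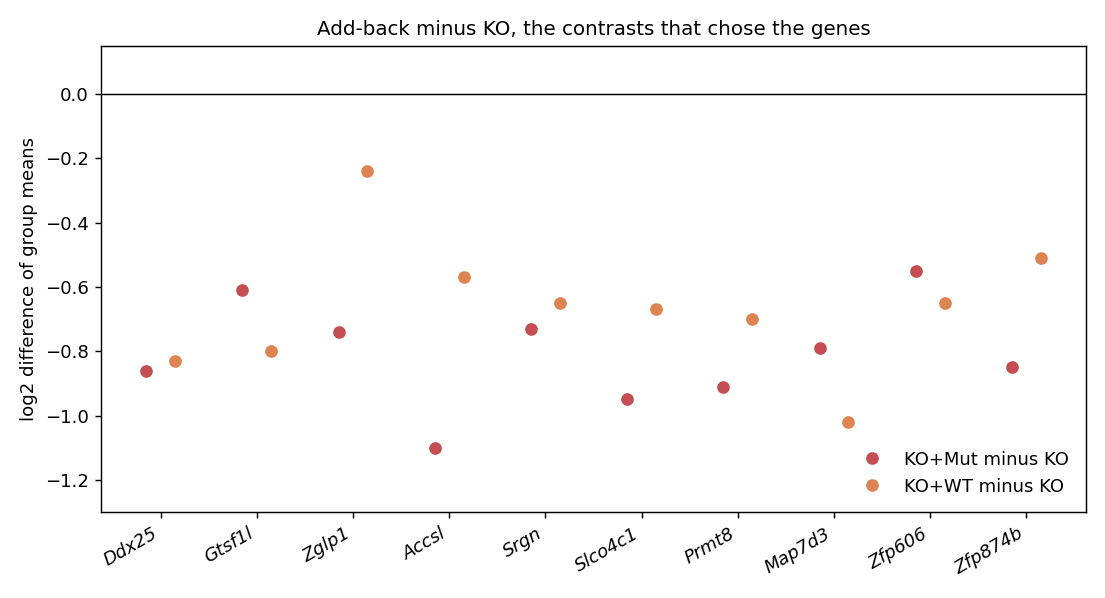
Log2 difference of group means, KO+Mut minus KO and KO+WT minus KO, for each gene (y axis, n = 3 arrays per group). All 20 points lie below 0, between -1.10 (Accsl, KO+Mut) and -0.24 (Zglp1, KO+WT).

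KO cells were next set against parental cells. Dppa2 and Dppa4 signals were lower in the cells labelled KO but above the array medians. Zfp874b had the largest positive difference, 0.60 (SE 0.14, adjusted p = 0.134), followed by Ddx25 at 0.50 (SE 0.14, adjusted p = 0.323) and Map7d3 at 0.46 (SE 0.17, adjusted p = 0.555). Srgn differed in the other direction, by -0.59 (SE 0.14, adjusted p = 0.14). Beside it, 12 of the 12 endoderm markers were lower in KO than in parental cells, with a median of -0.52, and 0 of them passed. The part of endoderm-like cells in the Srgn difference was not tested. Accsl, Gtsf1l and Slco4c1 differed by 0.11, 0.09 and 0.00, with 95% intervals from -0.17 to 0.38, -0.20 to 0.37 and -0.45 to 0.46. By limma 0 of the 10 genes passed in either direction, against 0.203% of all genes lower and 0.0361% higher. Of the 10 differences 9 were positive (median 0.24, and 0.001 over all genes). Groups did not overlap for 4 genes that were higher in KO cells (Ddx25, Prmt8, Zfp606 and Zfp874b; 6.11% of all genes) and for 1 that was lower (Srgn; 6.83%). The KO arrays are those against which the add-backs were low when the genes were chosen, so these signs are not independent of the choice. The replicate numbers were taken to pair these arrays. With the number as a block over all 12 arrays 1 gene passed by limma, Zfp874b (adjusted p = 0.0483), the gene of lowest rank on the arrays.

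Most of the genes had lower signal in the add-backs than in parental cells. The add-back arrays on one side of this comparison also chose the genes, so its values and calls are not independent of the choice. In KO+Mut, Srgn fell by 1.31 (log2 difference -1.31, SE 0.14, adjusted p = 0.000383), to 40.3% of the parental signal, and Accsl by 0.99 (-0.99, SE 0.13, adjusted p = 0.00188), to 50.4%. In KO+WT, Srgn fell by 1.23 (-1.23, SE 0.14, adjusted p = 0.000939) and Gtsf1l by 0.71 (-0.71, SE 0.13, adjusted p = 0.0329). The falls of Srgn in both add-backs and of Accsl in KO+Mut were called whichever of the 6 arrays compared was left out, with adjusted p up to 0.00306 and 0.00679 for Srgn in KO+Mut and KO+WT and up to 0.0151 for Accsl. The call of Gtsf1l was kept without KO+WT replicate 2 (adjusted p = 0.0382) and lost without any other of these arrays (0.0637 and 0.103 without KO+WT replicates 1 and 3, and 0.137, 0.13 and 0.0766 without parental replicates 1, 2 and 3). It was also lost in a fit of these 6 arrays alone (0.16).

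The genes thus passed in 2 of 10 cases in each add-back, against 0.338% of all genes lower in KO+Mut and 0.23% in KO+WT. All 10 differences were negative in KO+Mut (median -0.48, and -0.002 over all genes) and 8 of 10 in KO+WT (median -0.45, and 0.004 over all genes). Groups did not overlap for 7 genes in KO+Mut (Accsl, Gtsf1l, Map7d3, Prmt8, Slco4c1, Srgn and Zglp1; 9.38% of all genes) and for 7 in KO+WT (with Zfp606 and without Zglp1; 7.8%). Among genes that did not pass, Slco4c1 differed by -0.95 (SE 0.21, adjusted p = 0.0549) and Prmt8 by -0.65 (SE 0.15, adjusted p = 0.0745) in KO+Mut. The replicate numbers were taken to pair these arrays too. With the block 5 genes passed in KO+Mut, where Gtsf1l (adjusted p = 0.0292), Slco4c1 (0.00207) and Prmt8 (0.0215) joined Srgn and Accsl. In KO+WT 4 passed with it, Map7d3 (0.0246) and Slco4c1 (0.0161) beside Srgn and Gtsf1l, while the genes called over the whole array numbered 695 and 458 with the block and 220 and 122 without it.

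Other genes had add-back means nearer to the parental ones. Zfp874b and Zglp1 in KO+WT differed from parental cells by 0.09 and 0.05, with 95% intervals from -0.20 to 0.39 and -0.30 to 0.40. Ddx25 in KO+Mut and KO+WT differed from parental cells by -0.36 (SE 0.14, adjusted p = 0.351) and -0.34 (SE 0.14, adjusted p = 0.419), and parental replicate 3 lay among the add-back arrays. Beside Srgn, 2 of the 12 endoderm markers, both of the basement membrane, were called lower than in parental cells in each add-back. Lamb1, a laminin chain gene, fell by 0.95 in KO+Mut (-0.95, adjusted p = 0.0107) and by 0.92 in KO+WT (-0.92, adjusted p = 0.0222), and Lama1, another laminin chain gene, by 0.95 in KO+Mut (-0.95, adjusted p = 0.0301) and 0.94 in KO+WT (-0.94, adjusted p = 0.0477). Leaving out 1 array kept the Lama1 calls in 1 of 6 fits in each add-back, with adjusted p up to 0.141 without parental replicate 3 (KO+Mut) and 0.194 without parental replicate 2 (KO+WT), and the Lamb1 calls in 5 and 2 of 6, with adjusted p up to 0.0527 without KO+Mut replicate 3 and 0.0902 without parental replicate 2. Of 12 endoderm markers 2 passed in each add-back, both laminins. The list median was -0.53 in KO+Mut and -0.45 in KO+WT against parental cells, and it was -0.01 and 0.12 for KO+Mut and KO+WT against KO cells, where Srgn differed by -0.73 and -0.65. Blood cell markers averaged 3.74 to 3.87 on KO+Mut, 3.86 to 4.00 on KO+WT and 3.85 to 3.91 on parental arrays, and 0 of 8 passed.

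**Figure D4:**
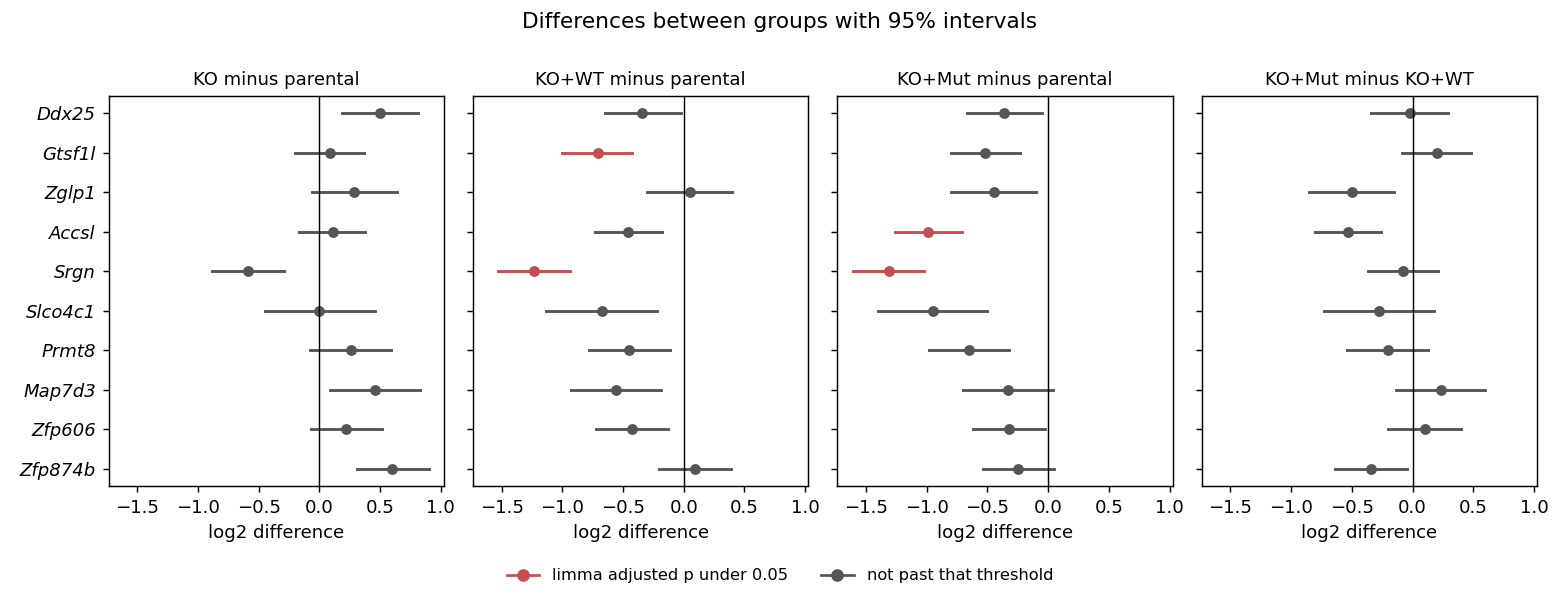
Log2 differences (x axis) of the 10 genes with 95% intervals from limma, for KO minus parental, KO+WT minus parental, KO+Mut minus parental and KO+Mut minus KO+WT (n = 3 arrays per group). Red points passed the threshold: Srgn in both add-backs, Gtsf1l in KO+WT and Accsl in KO+Mut.

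KO+Mut was set against KO+WT to ask whether these transcripts differed between cells given SUMO-deficient and wild-type proteins, both transfected and sorted. Accsl was lower in KO+Mut by 0.53 (difference -0.53, 95% interval -0.80 to -0.26), Zglp1 by 0.50 (-0.50, interval -0.85 to -0.15) and Zfp874b by 0.34 (-0.34, interval -0.64 to -0.05), and for these 3 genes the arrays did not overlap, which held for 3.62% of all genes in that direction. By limma 0 of the 10 genes passed, as did 0 of the 22180 genes (0%), all 10 with an adjusted p of 1. Of the 3 genes without overlap, Zfp874b had signals of 1.50 to 2.16 here, below the lower quartiles of the arrays. How much of that signal is background was not tested. At an unadjusted p under 0.05 the same 3 of 10 passed, against 3.04% of all genes. All 3 are among the genes called against KO cells in KO+Mut and not in KO+WT, and these arrays chose the genes, so this count is not independent of the choice. For the other 7 genes the intervals included 0: Map7d3 differed by 0.23 (-0.14 to 0.60), Gtsf1l by 0.20 (-0.09 to 0.48), Zfp606 by 0.10 (-0.20 to 0.40), Ddx25 by -0.02 (-0.34 to 0.29), Srgn by -0.08 (-0.37 to 0.21), Prmt8 by -0.20 (-0.54 to 0.13) and Slco4c1 by -0.28 (-0.73 to 0.18). Same-numbered arrays, taken to pair here, differed in 1 direction in all 3 pairs for some of these 7 genes. They were lower in KO+Mut for Slco4c1, Prmt8 and Srgn and higher for Map7d3 and Zfp606. For Srgn, replicate 3 was at 5.98 in both groups. The share of all genes with such agreement was not counted, so nothing is read from it. A block for the replicate numbers gave 0 of 10 calls. The number of arrays limits this comparison: the median half-width of a 95% interval over all genes was 0.344.

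Replicates of the same number held the same rank in several groups for some genes. For Slco4c1 and Map7d3 replicate 3 was the highest in 4 of 4 groups, for Gtsf1l, Prmt8 and Zfp606 replicate 1 in 3 of 4, and for Ddx25 and Zfp874b replicate 2 in 3 of 4. The share of all genes with such an order was not counted, so these counts are a description. Averaged over the 10 genes, each centred on its own mean, the signal was -0.46, -0.36 and -0.36 in KO+Mut, -0.25, -0.28 and -0.21 in KO+WT, 0.36, 0.39 and 0.50 in KO and 0.24, 0.21 and 0.22 in parental replicates 1, 2 and 3. The order of the groups in that average follows from the choice of genes.

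The genes next to the 10 on the chromosome were read as well. The nearest measured gene on each side in the RefSeq gene table was read for each, which gave 20 neighbours. By limma 0 of the 20 passed in any of the 6 comparisons. Their median difference was 0.01 in KO+Mut and -0.03 in KO+WT against KO cells, and 10 and 12 of the 20 were negative. Accs, the paralogue beside Accsl, differed by -0.04 in KO+Mut and -0.14 in KO+WT (adjusted p = 0.964 and 0.853), and Pus3, a tRNA pseudouridine synthase gene beside Ddx25, by -0.14 in each (adjusted p = 0.755 and 0.744). The lowest were those of Zfp874a, the paralogue beside Zfp874b, with -0.52 in KO+Mut (adjusted p = 0.201) and -0.37 in KO+WT (adjusted p = 0.407). Whether probes for Zfp874b also detect Zfp874a was not tested.

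The relatives of the 10 genes by family or process were read from lists. Among male germ cell RNA granule, piRNA and spermatid genes, 31 besides Ddx25 and Gtsf1l, 0 fell against KO cells in either add-back, and 3 rose in KO+Mut and 2 in KO+WT. Ddx4, the germ cell helicase gene, rose by 1.40 in KO+Mut and 1.25 in KO+WT (adjusted p = 0.000646 and 0.00214), and Mov10l1, a piRNA helicase gene, by 1.02 in KO+Mut and 1.03 in KO+WT (0.0172 and 0.024). Tdrd6, a chromatoid body gene, rose by 0.89 in KO+Mut (0.0145). The calls of Ddx4 were kept in all 6 fits without 1 array. The call of Mov10l1 was kept in 3 and 1 of the 6, with adjusted p up to 0.0955 without KO+Mut replicate 2 and 0.106 without KO replicate 2, and that of Tdrd6 in 3 of 6, up to 0.0898 without KO+Mut replicate 2. The list medians against KO cells were 0.05 in KO+Mut and 0.06 in KO+WT, and 11 and 14 of the 31 differences were negative. Ddx25 and Gtsf1l had the opposite sign to the members of their list that passed. The choice of genes sets that sign, so nothing is read from it. In KO against parental cells 2 of the 31 fell, Ddx4 (-1.41, adjusted p = 0.00203) and Tdrd12 (-0.93, adjusted p = 0.0489, kept in 0 of 6 fits without 1 array, up to 0.216 without parental replicate 3). Tdrd12 was named after its values were seen, since the naming rule stops at 4 genes a list. In KO+Mut against parental cells 2 rose (0.654% of all genes), Tdrd6 by 0.90 and Tdrd9 by 0.64, each kept in 2 of 6 fits, with adjusted p up to 0.107 and 0.137 without KO+Mut replicate 2.

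Of 23 oocyte and meiotic entry genes besides Zglp1, Dazl, an RNA-binding protein gene of germ cells, rose against KO cells by 1.80 in KO+Mut and 1.69 in KO+WT (adjusted p = 8.65e-05 and 0.000181), and 0 fell. Dazl was lower in KO than in parental cells (-1.35, adjusted p = 0.00407), as was Sohlh2, a germ cell transcription factor gene (-2.54, adjusted p = 0.000384). Sohlh2 was still lower than in parental cells in KO+Mut (-1.71, adjusted p = 0.00366) and KO+WT (-1.72, adjusted p = 0.00491). All of these calls were kept in 6 of 6 fits without 1 array. The list medians against KO cells were 0.03 in KO+Mut and -0.01 in KO+WT.

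In the other families 0 genes besides the 10 passed in any of the 6 comparisons. These were 22 zinc finger genes near Zfp874b and Zfp606 and Trim28, and the lists that follow. The zinc finger genes had a median of -0.15 in KO+Mut and -0.11 in KO+WT against KO cells, with 18 and 15 negative. In the same order, medians were -0.11 and -0.10 for 8 genes of protein arginine methyltransferases, a cofactor included. For 14 organic anion transporter genes they were 0.09 and 0.05. They were -0.06 and -0.09 for 9 genes of the MAP7 family, kinesin-1 and other microtubule partners. Medians were -0.08 and -0.01 for 9 ACC synthase-like and aminotransferase genes and -0.11 and -0.10 for 7 DEAD-box helicase genes. The 23 genes of proteoglycan cores and their synthesis had 0.10 and 0.16. The medians of all genes in these comparisons were -0.007 and -0.001. Their smallest p-values were as follows. Zfp457, of the zinc finger list, differed by 1.10 in KO against parental cells (adjusted p = 0.0527), beside Zfp874a above. Its means of 2.27 in KO and 1.17 in parental cells lay below the lower quartiles of the arrays. In KO+Mut against KO cells, the methyltransferase genes Carm1 and Prmt7 differed by -0.37 and -0.28 (adjusted p = 0.127 and 0.392), Map7 by -0.46 (0.114) and Xylt2, which starts glycosaminoglycan chains, by 0.40 (0.181). In KO+WT against KO cells, the glypican gene Gpc1 differed by 0.59 (0.0962) and the transporter gene Slco1b2 by 0.37 (0.257). The means of Slco1b2, 1.86 in KO+WT and 1.49 in KO cells, also lay below those quartiles. Of the 14 transporter genes 5 lay below the lower quartile on all arrays. In KO against parental cells, the kinesin gene Kif5a differed by 0.39 (0.283), the transporter gene Slco4a1 by 0.33 (0.504) and the aminotransferase gene Kyat3 by 0.47 (0.201). The aminotransferase gene Got2 and the helicase gene Ddx6 differed by -0.25 and -0.21 in KO+Mut (0.374 and 0.591), and Ddx17 by -0.17 in KO+WT (0.642), against parental cells. In the stem cell, trophectoderm, fibroblast and blood lists 0 genes passed in any comparison. Their smallest p-values belonged to Sox2 (-0.40, adjusted p = 0.118) and Fgf4 (-0.53, 0.139) in KO+Mut against parental cells, to Hand1 (0.94, 0.269) in KO+WT against KO and Gata3 (-0.31, 0.387) in KO+WT against parental cells, to Thy1 (0.52, 0.0954) in KO+Mut against KO and Pdgfrb (0.65, 0.479) in KO against parental cells, and to Laptm5 (0.48, 0.244) in KO+WT and Lyz2 (-0.64, 0.295) in KO+Mut against parental cells.

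Genes outside the set with the most similar profile were found by Pearson correlation with the mean of the 10 over the 12 arrays, among 3959 genes whose SD over the arrays was at least that of the least variable of the 10 (0.300). Arrays of a group share their condition, so r describes these 12 arrays. The closest was Pgap1, a GPI-anchor remodelling gene, with r = 0.939 and mean signals of 6.22 in KO+Mut, 6.31 in KO+WT, 6.94 in KO and 6.87 in parental cells. Dtna, which encodes dystrobrevin alpha, had r = 0.929 (4.21 in KO+Mut, 4.43 in KO+WT, 4.87 in KO and 4.92 in parental cells). Prdm14, a regulator of naive pluripotency and germ cell fate, had r = 0.923 with 5.88 in KO+Mut, 5.80 in KO+WT, 6.58 in KO and 6.47 in parental cells. The stearoyl-CoA desaturase gene Scd1 (r = 0.916, with 6.42 in KO+Mut, 6.48 in KO+WT, 7.44 in KO and 7.43 in parental cells) and the small nucleolar RNA gene Snora74a (r = 0.905, with 5.58 in KO+Mut, 5.52 in KO+WT, 7.11 in KO and 7.05 in parental cells) followed. Within the set, the correlation of a gene with the mean, to which it contributes, ran from 0.728 for Zglp1 to 0.923 for Accsl.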

How the data were processed

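RNA was measured on Affymetrix arrays, 1 per sample, after TRIzol extraction and labelling of cDNA, per the labels' protocols. The deposited values are normalized log2 signals, 1 per probe set and array, made with the Transcriptome Analysis Console, per the submitters' processing notes. The sources used here name neither its version nor its background correction, summarization or genome build. That the scale is log2 was inferred from the values. If that step compressed low signals, differences of low genes are understated.

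GEO's array annotation pairs 23521 of the 41345 probe sets with a single symbol (1 each), 1814 with several and 16010 with none. Entrez identifiers of 23328 were found in the RefSeq table of GRCm38.p6. The probe set of highest mean stood for a gene, which left 22180 genes. Groups were compared in R 4.3.3 by limma 3.58.1, with lmFit and eBayes on 1 mean per group over 12 arrays, with Benjamini-Hochberg adjustment over the 22180 genes of a comparison and a threshold of 0.05. The fit was tested on simulated data drawn independently for each array, without an effect of the replicate number. Python 3.11.15 with pandas 2.3.3 and matplotlib 3.10.9 made the tables and the plots. The number of arrays limits the precision.

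The 10 genes and the 14 lists (205 measured of 216 entries) were chosen with earlier results of these data known. Named genes were the 10, Dppa2 and Dppa4, up to 4 genes of each list past the threshold or else the 2 of smallest p, the nearest measured gene on each side of each of the 10, and the 5 of highest correlation with their mean. As a check of pairing, same-numbered arrays were compared in how they deviate from the means of their groups, and the correlation exceeded 0.1 in all 3 pairs for KO against parental cells (0.36, 0.15 and 0.42), KO+Mut against KO+WT (0.40, 0.21 and 0.47) and KO+Mut (0.33, 0.13 and 0.36) and KO+WT (0.33, 0.15 and 0.31) against parental cells. The numbers, taken from the titles, were taken to pair those arrays. Alternatives were the replicate block, a filter that drops genes below percentile 25 of mean signal, centring on array medians, quantile normalization, fits of the 6 arrays compared, averaging all probe sets of a gene, eBayes with trend and robust variances, and leaving out each array. Another background correction and a slide block were not run, because scanner files and slides were not used here.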

Additional observations from a re-analysis of the deposited data

How the results depend on the processing

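The direction of the 10 genes against KO cells, which the choice of genes sets, was the same in every setting tried for both add-backs. The number past the threshold was not the same. Against KO cells that number is a description, since those arrays chose the genes. With the replicate number as a block, 9 of the 10 passed in KO+WT against KO cells (5 without it), 10 in KO+Mut against KO cells (9 without it), 4 in KO+WT and 5 in KO+Mut against parental cells (2 each without it) and 1 in KO against parental cells (0 without it). The genes called over the whole array numbered 494 in KO+WT and 716 in KO+Mut against KO cells, 458 and 695 against parental cells and 137 in KO against parental cells with the block, and 184, 282, 122, 220 and 53 without it. Against KO cells, same-numbered arrays correlated at 0.31, 0.06 and 0.29 in KO+WT for replicates 1, 2 and 3. In KO+Mut the values were 0.31, 0.08 and 0.36. Only replicate 2 lay below the limit of 0.1, and the numbers were therefore not taken to pair these arrays, although the block uses them there. The same numbers were taken to pair KO and both add-backs with parental arrays. Whether same-numbered KO and add-back arrays share a source was not tested. When the 6 arrays compared were fitted alone, 1 of the 10 passed in KO+WT (of 75 genes called) and 5 in KO+Mut (of 207) against KO cells. Against parental cells 1 passed in KO+WT (of 52), 3 in KO+Mut (of 186, Slco4c1 now among them with adjusted p = 0.0406 by limma) and 0 in KO (of 27). Median centring gave 4 of 10 in KO+Mut against parental cells, where 231 genes were called, and moved the share of higher calls to 72.9% in KO+Mut and 75.2% in KO+WT against KO cells (87.9% and 88% as deposited) and to 52.8% in KO+Mut against parental cells (65.9%). Leaving out 1 array gave 1 to 4 of the 10 in KO+WT and 3 to 5 in KO+Mut against KO cells, 1 to 2 in KO+WT against parental cells and 2 in all 6 fits of KO+Mut against parental cells. Whole-array counts were then 86 to 164, 119 to 207, 51 to 131, 104 to 159 and, for KO against parental cells, 19 to 31. With genes below percentile 25 left out, Zfp874b was not tested. The signs that turned belonged to differences near 0, none of them called: Slco4c1 in KO against parental cells (-0.01 after quantile normalization, -0.20 to 0.17 without 1 array), Zglp1 in KO+WT against parental cells (-0.01 after median centring, -0.02 to 0.12 without 1 array), and, without 1 array, Ddx25 (-0.11 to 0.05) and Zfp606 (-0.003 to 0.20) in KO+Mut against KO+WT. The cause was not tested. In KO+Mut against KO+WT 0 genes passed in any setting.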
